A study of Arabidopsis thaliana with 6 samples.

Results

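The heavy metal transporting P-type ATPases of Arabidopsis thaliana are a family of 8 genes, HMA1 to HMA8, taken here by their loci among 27444 protein-coding genes on the 5 nuclear chromosomes. Binding of AtDEK3, a DEK-domain chromatin protein, at these genes was read from peak lists of a chromatin immunoprecipitation and sequencing (ChIP-seq) experiment. A peak was counted for a gene when it overlapped the gene span or lay within 1 kb of it, which gave 10 peaks at 7 of the 8 genes. The family was picked from these same lists, so the number of peaks and the genes that carry them describe the choice and were not tested.

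The immunoprecipitated chromatin came from nuclei of 14-day-old Col-0 seedlings of 3 independent AtDEK3 overexpressor lines, OE3-1, OE9-1 and OE17-4. All carry AtDEK3 with a cyan fluorescent protein (CFP) tag and were precipitated with an antibody against green fluorescent protein. The lines are 3 libraries, 1 per line, and act as replicates. The promoter of the transgene is not given in the sources used here, and neither the 3 matching inputs nor an untagged control was analysed here. The lists hold 5332 peaks with 1235876 reads in OE3-1, 3733 peaks with 814853 reads in OE9-1 and 3426 peaks with 549029 reads in OE17-4. Total library depth is unknown. The lists also differ in their filter, since Wilcoxon filter p-values reach 0.1 in OE3-1 and in OE9-1 but 9.99e-05 in OE17-4, leaving aside rows written with 3 dots. Reads and false discovery rates (FDR) are therefore ranked within each line's own list and not compared between lines.

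HMA proteins are membrane pumps that use ATP to move transition metal ions across a membrane and are phosphorylated on an aspartate during each cycle. HMA1 to HMA4 form the zinc group and HMA5 to HMA8 the copper group. In seedlings HMA2 and HMA4 move zinc and cadmium from root to shoot. Of the copper group, HMA6 and HMA8 supply copper in chloroplasts and HMA7 supplies it to ethylene receptors.

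Within the 1 kb margin, peaks of the zinc group came from OE17-4 alone. HMA1, HMA2 and HMA3 held 5 OE17-4 peaks between them, all inside the gene spans, and HMA4 held none in any line. Peaks of the copper group came from all 3 lines, with 5 peaks at its 4 genes, of which 2 were OE17-4 peaks. HMA8 alone had peaks of 2 lines, and these did not overlap. How often peaks of 2 lines overlap over all genes was not counted. The split by line depends on the margin. At 2 kb HMA3 also had an OE9-1 peak, and with the gene span alone OE9-1 had 0 HMA genes with a peak. Of all protein-coding genes, 13.9% had an OE17-4 peak in the span or within 1 kb, 22.5% an OE3-1 peak and 12.2% an OE9-1 peak. Their shares at the other margins were not counted. Nothing is read from the difference between both groups.

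**Figure D1:**
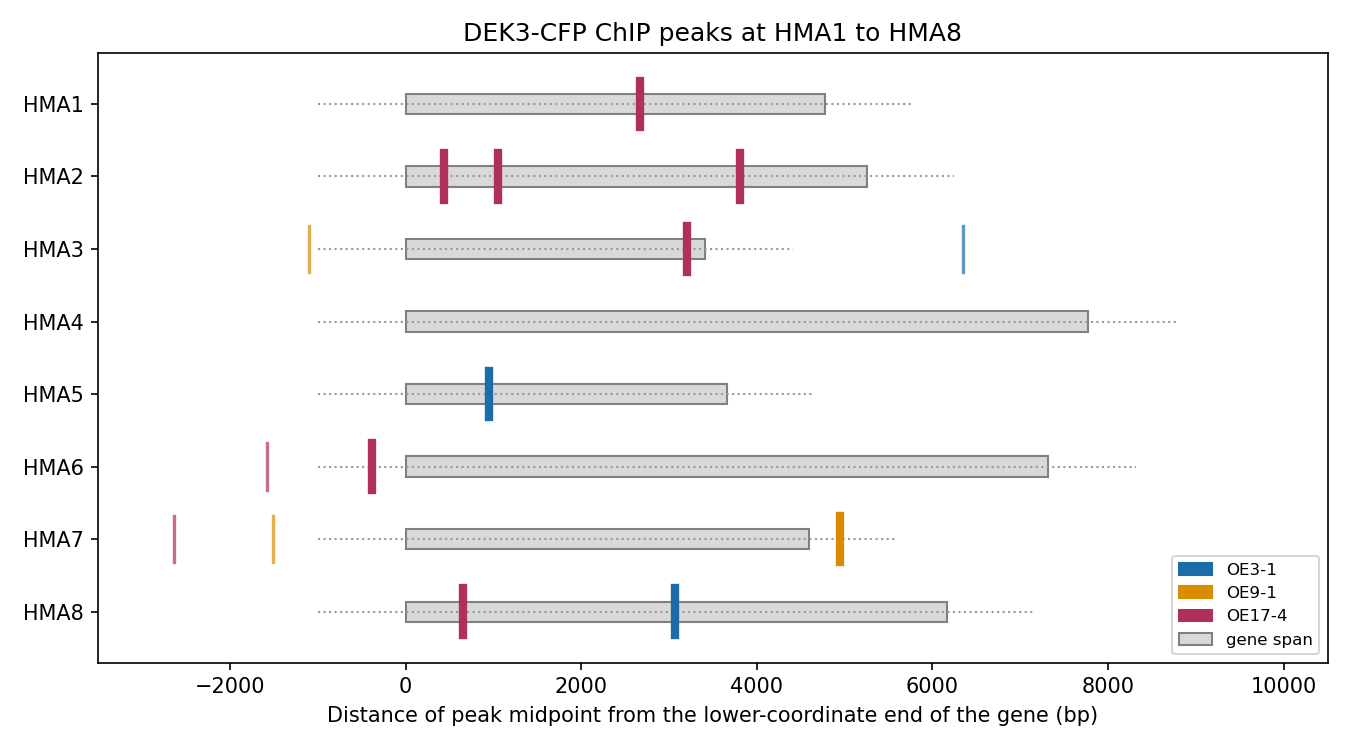
Peaks at HMA1 to HMA8, one gene per row, plotted as the distance in bp of the peak midpoint from the lower-coordinate end of the gene. Grey bars are gene spans, dotted lines add 1 kb on each side, and colours are lines. Thick marks are the 10 counted peaks and thin marks are peaks farther out that were not counted. HMA2 holds 3 OE17-4 peaks and HMA4 holds none.

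HMA2 (AT4G30110), a plasma membrane zinc and cadmium pump that works with HMA4 in loading the root xylem, carried the most peaks of the family. On chromosome 4 of TAIR10, the build named in the submitters' processing notes, its OE17-4 peaks spanned 14720438 to 14720561, 14721050 to 14721176 and 14723813 to 14723934. They held 175, 242 and 112 reads in that order, with FDRs of 1.22%, 0.00911% and 4.06%. The middle peak had the most reads of the 7 OE17-4 peaks at HMA genes, and the last was in the lower part of its list, with 26.0% of OE17-4 peaks having as few or fewer reads. The midpoints of the outer pair lay 437 bp from the lower-coordinate gene end and 1438 bp from the upper one. From midpoint to midpoint the first step was 614 bp and the next 2760 bp, so the first 2 peaks lay close together and the third apart. OE3-1 and OE9-1 had no peak within 1 kb of HMA2. Their nearest peaks lay 11224 bp and 3757 bp from the gene.

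Only 9 of 27444 protein-coding genes (0.0328%) had 3 or more OE17-4 peaks in the span or within 1 kb, and none had more than 3. HMA2 was the single gene of that kind (0.0211%) among the 4729 genes whose lengths lie between those of the shortest and longest HMA gene. In the 9 genes, HMA2 included, consecutive OE17-4 midpoints lay a median of 1358 bp apart (quartiles 779 and 1882 bp, 18 steps). The 2 steps in HMA2 are among the 18 and fell on either side of those quartiles.

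HMA3 (AT4G30120), a vacuolar pump for zinc and cadmium whose Col-0 allele is known to be truncated, is the next gene along chromosome 4. Between the HMA2 and HMA3 spans lie 4903 bp. HMA3 carried 1 OE17-4 peak at 14733346 to 14733493, with 80 reads and an FDR of 3.49%. It had the fewest reads of the 7 OE17-4 peaks at HMA genes, and 4.82% of OE17-4 peaks had as few or fewer. Its midpoint lay 209 bp inside the upper-coordinate gene end, nearer to a gene end than any other peak inside an HMA gene. In the space between both genes lay an OE9-1 peak at 14729068 to 14729168, with 149 reads and an FDR of 4.57%. It was 1047 bp from HMA3 and 3757 bp from HMA2, and so just missed being counted. HMA2, HMA3 and HMA4 are close paralogs. The genome sequence was not used here, so how many of the reads could also map to a paralog was not tested.

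HMA1 (AT4G37270), a pump of the chloroplast envelope, carried the OE17-4 peak with the lowest FDR in the family. It lay at 17544364 to 17544511 on chromosome 4, with 216 reads and an FDR of 0.00405%. By FDR it was number 121 of 3426 in its list. Its midpoint was 2109 bp from the nearer gene end, at 55.8% of the span, so it sat in the middle of the gene. The nearest OE9-1 and OE3-1 peaks were 6777 bp and 13734 bp from HMA1.

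HMA4 (AT2G19110), the other xylem-loading zinc pump and the longest gene of the family at 7773 bp, had no peak within 1 kb in any line. The nearest OE17-4 peak was 10872 bp from it, the nearest OE3-1 peak 15720 bp and the nearest OE9-1 peak 21153 bp. Peaks were not missing from its surroundings. Within 50 kb of the gene OE3-1 and OE9-1 had 3 peaks each and OE17-4 had 4.

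In the copper group, HMA8 (AT5G21930, PAA2), which pumps copper across the thylakoid membrane towards plastocyanin, was the only HMA gene with peaks of 2 lines in the span or within 1 kb. On chromosome 5 its OE17-4 peak at 7243583 to 7243738 had 187 reads and an FDR of 1.59%. Its OE3-1 peak at 7246038 to 7246102 had 192 reads and an FDR of 2.19%. The OE17-4 peak lay 658 bp from the lower-coordinate end of the gene and the OE3-1 peak at 49.7% of the span, with 2410 bp between midpoints. In 1027 genes with peaks of both lines the nearest midpoints were a median of 1185 bp apart (quartiles 439 and 2148 bp). In the 328 of them as long as HMA genes the median was 1392 bp (quartiles 522 and 2768 bp). The HMA8 peaks were thus farther apart than in the median gene of their length and within its quartiles. OE9-1 came no nearer to HMA8 than 29127 bp.

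HMA6 (AT4G33520, PAA1), which brings copper into the chloroplast upstream of HMA8, had no peak inside its span. Its 1 counted peak, from OE17-4, lay at 16118391 to 16118497 on chromosome 4 with 159 reads and an FDR of 0.06%. That peak was 333 bp outside HMA6 but inside the next gene, DHS2 (AT4G33510), which encodes an enzyme of the first step of the shikimate pathway and ends 4 bp before HMA6. The authors' gene column names DHS2 for it. A second OE17-4 peak in DHS2, at 16117189 to 16117317 with 231 reads and an FDR of 0.76%, lay 1513 bp from HMA6 and was not counted. Both peaks belong to DHS2 by position, and the count for HMA6 rests on the 1 kb margin.

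HMA7 (AT5G44790, RAN1), which delivers copper to ethylene receptors, likewise had no peak inside its span. Its counted peak came from OE9-1 and lay 311 bp beyond the upper-coordinate end, at 18080471 to 18080543 on chromosome 5. It held 142 reads at an FDR of 4.23%, and overlapped no protein-coding gene. The next such gene on that side, the chromatin remodelling gene CHR4, was 2734 bp away. On the other side an OE9-1 peak at 18074026 to 18074078, with 140 reads and an FDR of 0.13%, lay 1484 bp from HMA7. It was nearer to OSB3, a gene for an organellar DNA-binding protein, at 897 bp. An OE17-4 peak inside OSB3 lay 2584 bp from HMA7.

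HMA5 (AT1G63440), a copper pump best known from roots, carried 1 OE3-1 peak at 23528496 to 23528541 on chromosome 1. It held 168 reads at an FDR of 4.03%. Its 46 bp made it the shortest of the 10 peaks. The midpoint lay 948 bp from the lower-coordinate end, at 25.9% of the span. OE17-4 and OE9-1 had their nearest peaks 9411 bp and 39796 bp away.

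The counted peaks outside a gene span lay at HMA7 (311 bp) and HMA6 (333 bp). The nearest peaks beyond the 1 kb margin, which were not counted, lay at HMA3 (1047 bp), HMA7 (1484 bp) and HMA6 (1513 bp).

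Set beside all genes, the HMA family stood at 62.5% in OE17-4 (5 of 8 genes), where 13.9% of all protein-coding genes had a peak in the span or within 1 kb. In OE3-1 it stood at 25.0% (2 of 8), against 22.5% of all genes. In OE9-1 it stood at 12.5% (1 of 8), against 12.2% of all genes. In any line 7 of 8 HMA genes had a peak, against 41.0% of all genes, and in at least 2 lines 1 of 8, against 7.20%. Because the family was picked from these peaks, nothing is read from the distance between these shares. Over the lines, the HMA share was 33.3% ± 26.0 and the share of all genes 16.2% ± 5.52 (SD, n = 3 lines each). The lists differ in size and filter, so this spread includes those differences and is not one of replicates alone. Without OE17-4, 3 peaks were left at 3 HMA genes, and the share of all genes was not counted without that line.

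HMA genes are long, and whether length bears on their shares was not tested. Their spans run over 3414 to 7773 bp with a median of 5013 bp, against 2078 bp for all genes. Among the 4729 genes of that range, 18.7% had a peak in OE17-4, 36.9% in OE3-1 and 16.2% in OE9-1. In any line 57.2% of them had one, and in at least 2 lines 13.7%.

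**Figure D2:**
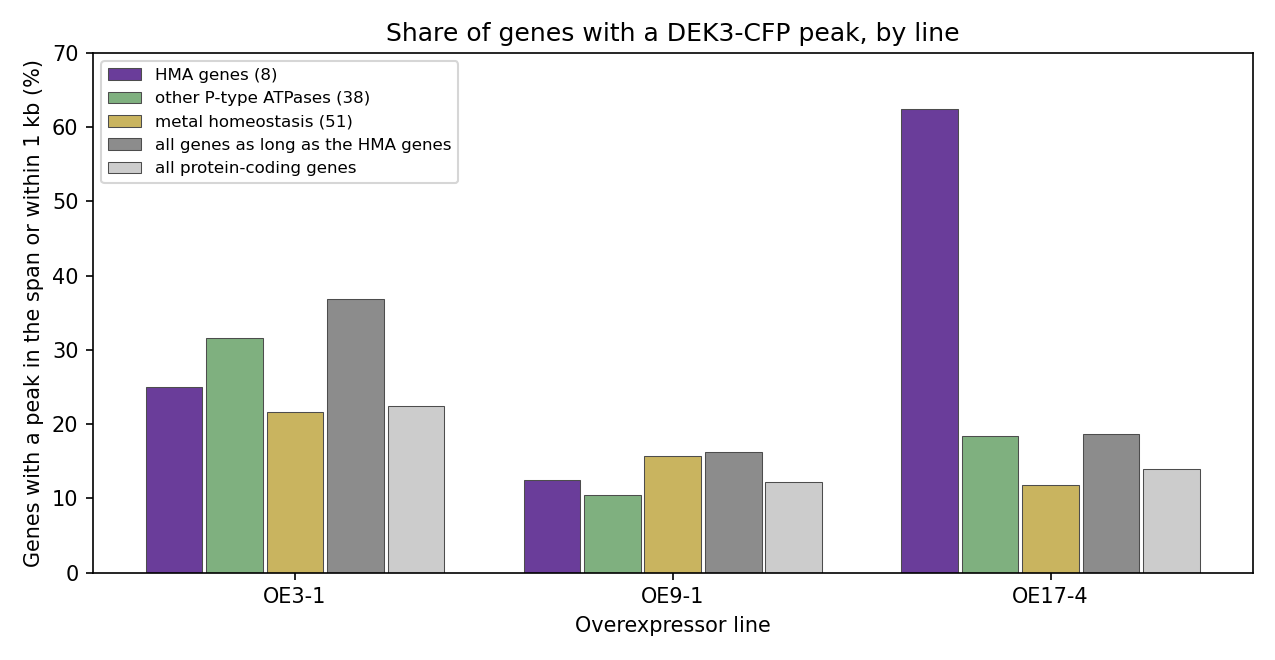
Share of genes in percent with a peak in the span or within 1 kb, in each line, for the 8 HMA genes, 38 other P-type ATPase genes, 51 other metal homeostasis genes, all genes as long as the HMA genes and all protein-coding genes. The HMA bar stands at 62.5% in OE17-4, and at 25.0% and 12.5% in OE3-1 and OE9-1.

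Of the 5 HMA genes with an OE17-4 peak, 4 lie on chromosome 4 and HMA8 on chromosome 5. All 4 HMA genes on chromosome 4 (HMA1, HMA2, HMA3 and HMA6) had an OE17-4 peak and no peak of another line within 1 kb. They held 6 of the 7 OE17-4 peaks. Peaks of at least 2 lines are uncommon, at 7.20% of all genes and 13.7% of those as long as HMA genes. The pattern also rests on the margin, as the HMA6 peak lies inside DHS2 and an OE9-1 peak lay 1047 bp from HMA3. Of all genes on chromosome 4, 14.8% had an OE17-4 peak, close to the share over the genome. The surroundings of the family were read the same way. Within 50 kb of an HMA gene lay a median of 4.5 OE17-4 peaks (range 2 to 7), 4 OE3-1 peaks (2 to 12) and 3 OE9-1 peaks (1 to 8). The medians over all genes were 3, 5 and 3 in the same order, with quartiles of 2 to 4, 3 to 8 and 2 to 4. The counts include the peaks at the HMA genes themselves, from which the family was picked. HMA2 and HMA3 lie 4903 bp apart and so share most of their windows, with 7 OE17-4 peaks each. Nothing is read from the distance between these medians. HMA6 had 12 OE3-1 peaks within 50 kb and none nearer than 4314 bp.

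By position, 8 of the 10 peaks had their midpoint inside the gene, namely 6 of 7 in OE17-4, 2 of 2 in OE3-1 and 0 of 1 in OE9-1. Most listed peaks of OE17-4 and OE3-1 lie in genes as well. With a matched name, 2501 of 3426 OE17-4, 4729 of 5332 OE3-1 and 1429 of 3733 OE9-1 peaks overlapped exactly 1 protein-coding gene. That is an overlap and not a midpoint, so the shares are only roughly alike in measure. The 6 OE17-4 midpoints inside HMA genes lay 209 to 2109 bp from the nearer gene end. In genes of the same lengths, 734 OE17-4 midpoints lay a median of 849 bp from it (quartiles 376 and 1498 bp). Those of HMA1 and HMA3 were outside the quartiles, on opposite sides, and the other 4 were inside. The OE3-1 midpoint in HMA5 was inside the quartiles of its line (571 and 1662 bp over 1783 midpoints) and that in HMA8, at 3068 bp, was beyond them. Which end is the start of the gene, and where exons lie, was not used here, so promoters, exons and introns were not told apart.

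By strength the OE17-4 peaks were spread over most of their list, and the peaks of both other lines lay in the lower part of theirs by reads. The 7 OE17-4 peaks held 80 to 242 reads with a median of 175, against a median of 136 over the OE17-4 list. HMA1 and the middle peak of HMA2 were within the first 10% of that list by FDR, at 3.53% and 5.25%. HMA6 followed at 13.0%. HMA3 and the last peak of HMA2 were near its end, at 86.0% and 91.8%. Among the others, the OE3-1 peaks of HMA5 and HMA8 had fewer reads than the OE3-1 median of 210. The HMA7 peak had fewer than the OE9-1 median of 202.

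**Figure D3:**
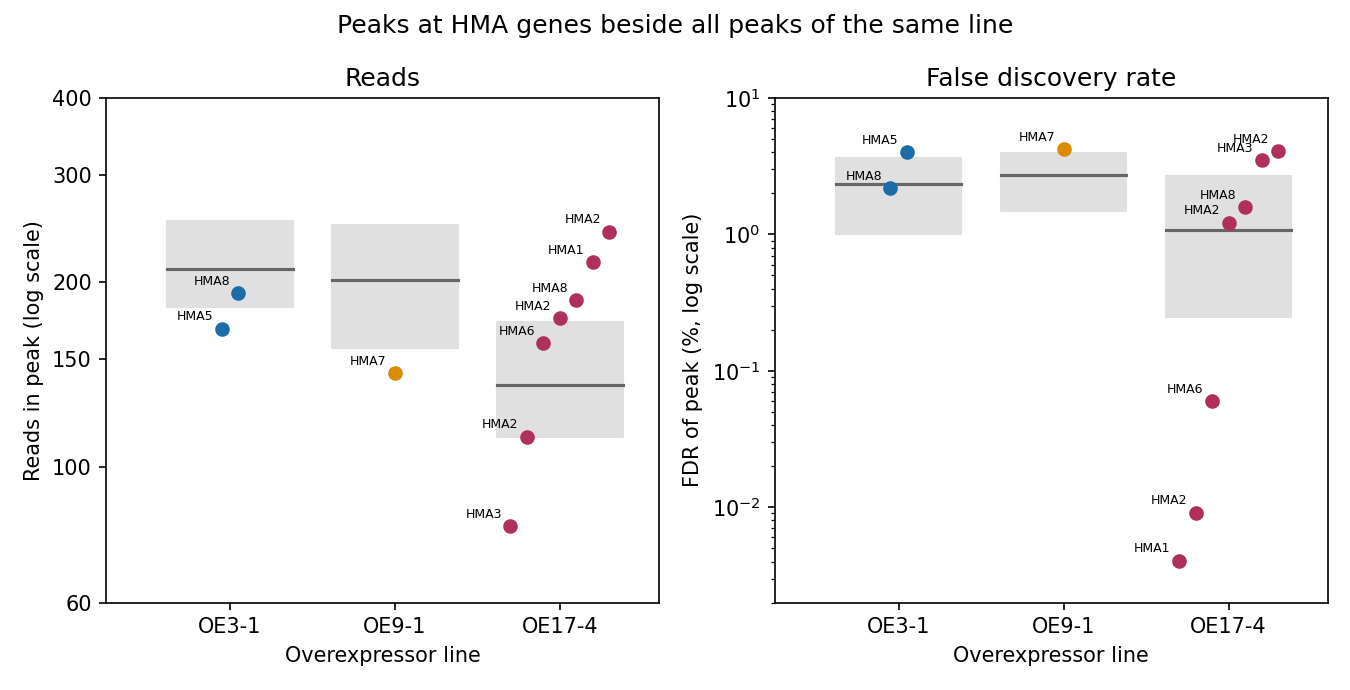
Reads per peak (left, log scale) and FDR in percent (right, log scale) of the 10 peaks at HMA genes, by line. Grey bands run from the lower to the upper quartile of all peaks of that line and the grey line is their median. OE17-4 peaks spread from 80 reads at HMA3 to 242 at HMA2, and the OE3-1 and OE9-1 peaks lie below their medians in reads.

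Reads fell on both strands of every peak. The share of forward reads ran from 44.3% in the OE3-1 peak of HMA8 (exact 95% binomial interval 37.1 to 51.6%) to 57.7% in the peak of HMA5 (49.9 to 65.3%). Within OE17-4 it ran from 46.5% at HMA6 (38.6 to 54.6%) to 54.3% in the first peak of HMA2 (46.6 to 61.8%). At HMA3 it was 40 forward reads and 40 reverse reads. The interval included 50% in all 10 peaks. How many of all listed peaks have such an interval was not counted, so whether this is particular to HMA peaks is not known. The deposited normalized difference between strands had a median of 0.06 in the OE17-4 peaks, against 0.07 over their list. It was 0.13 against 0.11 in OE3-1, and 0.11 in the OE9-1 peak against 0.08. Intervals are Clopper-Pearson and cover counting error only. The uncounted OE9-1 peak near OSB3 differed from these, with 37.1% forward reads (29.1 to 45.7%).

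**Figure D4:**
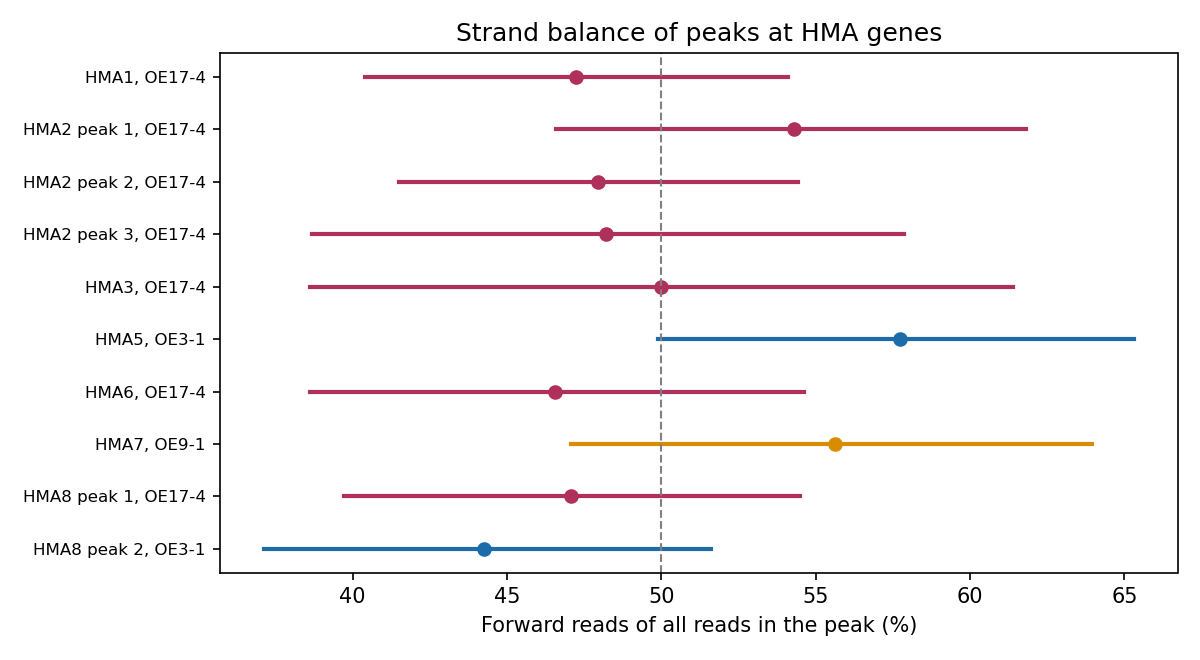
Forward reads as a percentage of all reads in each of the 10 peaks at HMA genes, with exact 95% binomial intervals, coloured by line (red OE17-4, blue OE3-1, orange OE9-1). The dashed line marks 50%, which every interval includes.

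Genes related to the HMA family were followed by lists of known members. The counts below stand beside 13.9% of all protein-coding genes with a peak in OE17-4, 22.5% in OE3-1 and 12.2% in OE9-1, and nothing particular is read from any list. Among 38 other P-type ATPase genes, 7 had an OE17-4 peak (18.4%), 12 an OE3-1 peak (31.6%) and 4 an OE9-1 peak (10.5%). Calcium ATPases, which pump calcium out of the cytosol, had an OE17-4 peak in 0 of 14 genes, an OE3-1 peak in 4 (28.6%) and an OE9-1 peak in 1 (7.14%). Proton ATPases, which energize the plasma membrane, had an OE17-4 peak in 4 of 11 genes and an OE3-1 or OE9-1 peak in 3 each. Lipid flippases had an OE17-4 peak in 3 of 12 genes, an OE3-1 peak in 5 and an OE9-1 peak in 0. The endoplasmic reticulum pump PDR2 had none.

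In the other ATPases, peaks of 2 lines lay at the proton pump genes AHA10 and HA8 and at the flippase genes ALA2 and AT1G26130. In AHA10, which acidifies the vacuole in the seed coat, an OE17-4 peak at 5908383 to 5908540 on chromosome 1 ended just before an OE3-1 peak at 5908575 to 5908602. They held 185 and 374 reads. HA8 had an OE17-4 peak inside the gene, with 142 reads, and an OE9-1 peak 458 bp outside, with 187 reads. ALA3, a flippase of the Golgi, had 3 OE3-1 peaks with 184, 208 and 236 reads. AT1G26130 also had 3 OE3-1 peaks, none of them inside the gene.

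Among 51 other genes of metal homeostasis, 6 had an OE17-4 peak (11.8%), 11 an OE3-1 peak (21.6%) and 8 an OE9-1 peak (15.7%). Copper genes had an OE17-4 or OE9-1 peak in 3 of 16 each and an OE3-1 peak in 4. Among them the copper chaperone gene CCH had 1 OE17-4 peak with 124 reads and 2 OE9-1 peaks with 322 and 242 reads. SPL7, the regulator of the copper deficiency response, had an OE3-1 peak. Of 14 zinc and iron uptake genes of the ZIP family, 1 had an OE17-4 peak, 2 an OE3-1 peak and 1 an OE9-1 peak, and the iron transporter gene IRT1 was an OE3-1 gene.

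Genes of zinc and cadmium storage and its regulation had an OE17-4 peak in 1 of 15 cases and an OE3-1 or OE9-1 peak in 4 each. The vacuolar nicotianamine transporter gene ZIF1 had 2 OE3-1 peaks inside the gene, with 480 and 173 reads, and 2 OE9-1 peaks outside it, with 271 and 201 reads. FRD3, a citrate transporter gene, had an OE17-4 peak and an OE9-1 peak outside the gene, with 145 and 191 reads. The NRAMP metal transporter genes had an OE17-4 and an OE3-1 peak in 1 of 6 genes each, and no OE9-1 peak. Of 8 genes for ethylene receptors and their signalling, which depend on the copper that HMA7 delivers, EIN4 had an OE3-1 peak and ETR2 an OE9-1 peak. An OE17-4 peak was found at 0 of the 8, where 13.9% of all genes had one.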

How the data were processed

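Each of the 3 ChIP libraries has 1 peak list, called per line. Per the submitters' processing notes the build was TAIR10. No label or header names the aligner or peak caller, or says how inputs were used. Per the file headers the authors deposited, for each peak, read counts in total and per strand without normalization, an FDR in percent, a normalized difference between strands as a fraction, and a Wilcoxon filter p-value. Empty rows and repeated regions were dropped. Genes were located with a RefSeq table on TAIR10.1, none of whose coordinates are printed. The table has no strand, exons or sequence. Peaks were assigned to genes in Python 3.11.15 with pandas 2.3.3, by an overlap of at least 1 bp with the span plus 1 kb, after a test on simulated data. Exact intervals used scipy 1.17.1. The members and gene lists were chosen with earlier results of these data known, and no test of chance was made. All 8 members are named, and listed genes with peaks in at least 2 lines or 3 or more peaks in 1 line. Any other listed gene was named after its values were seen. ZIP8, a transcribed pseudogene, was left out of its list.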

Additional observations from a re-analysis of the deposited data

How the results depend on the processing

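Of 81 counts under an alternative, 61 stayed within 1.5 times the reported value and 20 did not. Some of the 61 could not have changed, so the tally does not measure how firm the counts are. The share of all genes was not counted under these alternatives, so nothing about HMA genes is read from a change in a count. With the gene span alone OE9-1 had 0 HMA genes with a peak, and with 2 kb it had 2 and at least 2 lines had 2. In the upper 50% of each list by FDR, 4 peaks at 4 genes were left, with 3 midpoints in the span, and 3 OE17-4, 1 OE3-1 and 0 OE9-1 genes. No gene then had 2 lines (0). The highest deposited Wilcoxon filter p was 0.1 in OE3-1 and in OE9-1 but 9.99e-05 in OE17-4 without rows written with 3 dots. A limit of 0.0001 therefore left the 5 OE17-4 genes in place by construction, and OE3-1, OE9-1 and at least 2 lines had 0 genes. By the authors' gene column OE9-1 had 2 genes and at least 2 lines had 2. Leaving out a line gave 3 to 9 peaks, 3 to 6 genes in any line, 0 to 1 gene in at least 2 lines and 2 to 8 midpoints in the span, with the lowest values without OE17-4. Without OE3-1 no gene had 2 lines. A 500 bp margin, midpoints in the window and lists without the rows written with 3 dots moved no count past that limit. Nor did leaving out peaks that overlap a neighbour and not the HMA gene, chosen after the data were seen. The counted peaks outside a gene lay at 311 and 333 bp, and no peak at an HMA gene was in a row with 3 dots. The 500 bp margin and the lists without those rows thus had no peak to drop. Leaving out a line cannot change the count of another line. No paired analysis was possible because the inputs were not analysed here. Each line is 1 library, so the peaks of a line have no replicate of their own. With depth unknown, a gene without a peak is not shown to be unbound.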

Other observations

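The authors' gene column and the positions disagreed at HMA2. Its first 2 OE17-4 peaks overlap HMA2 and no other protein-coding gene, yet that column names AT4G30100, the adjoining gene. It names HMA2 for the OE9-1 peak 3757 bp outside HMA2 and nearer to HMA3. Among peaks that overlap exactly 1 protein-coding gene and whose name matched the table, 14.1% of 2501 OE17-4 peaks, 16.0% of 4729 OE3-1 peaks and 17.3% of 1429 OE9-1 peaks carried the name of another gene. The symbol PAA1 stands for both HMA6 and a proteasome subunit gene. The 1 row named PAA1, an OE3-1 peak at 13765795 to 13765864 on chromosome 5 with 165 reads, overlaps the proteasome gene AT5G35590 and not HMA6.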
